A study of Mus musculus with 14 samples.

Results

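Angiogenic sprouts are led by tip cells, and the genes described here are 8 transcripts known for their high level in tip cells: *Apln*, *Esm1*, *Aplnr*, *Cxcr4*, *Plaur*, *Mcam*, *Kcne3* and *Trp53i11*. They were taken by name, and all 8 were found among the 26528 genes of the deposited brain matrix. The nuclei came from brain vascular fragments and were profiled by snRNAseq with PIPseq, in which each captured transcript carries a unique molecular identifier (UMI) and is counted once. The genotypes were control and *Cdh5CreER;Tgfbr1 CKO/-* (CKO), each with 1 library made from 2 pooled brains. In the CKO mice, Cre driven by the *Cdh5* promoter and so expressed in endothelial cells (ECs) was activated with 4-hydroxytamoxifen from postnatal day 3 to day 5 to delete *Tgfbr1*, which encodes a TGF-beta receptor. The labels call the control wild type, whereas the study describes its phenotypically wild type control retinas as mostly Cre-positive and heterozygous for the floxed allele. The methods give the age as postnatal day 14, whereas the series text speaks of young adults. The same genes were also read in whole retina, in 1 control and 11 CKO libraries. The control brain library holds 16649 nuclei and 49798325 UMIs, and the CKO library 14675 nuclei and 31033373 UMIs.

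Tip cells extend filopodia toward vascular endothelial growth factor, while the stalk cells behind them divide and form the lumen, and Notch signaling from the tip restrains tip fate in its neighbors. As a front advances, tip ECs secrete factors such as apelin, encoded by *Apln*, and endocan, encoded by *Esm1*, and they use receptors that sense guidance and matrix, among them the chemokine receptor encoded by *Cxcr4*. In maturing brain and retina the sprouting program is known to decline as vessels acquire pericytes and barrier properties, and TGF-beta signaling is one of the pathways known to act in that maturation.

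The nuclei that the authors labeled as ECs carry the EC identity. All 9 EC markers had UMIs in both libraries, with a summed level of 10211 CPM, UMIs scaled to 1000000 summed UMIs of these nuclei, in the control and 8467 in CKO, and *Flt1*, a VEGF receptor gene, was the most abundant. There were 2475 EC nuclei with 5801552 UMIs in the control and 2944 with 6851854 UMIs in CKO, at medians of 1347 and 1491 UMIs per nucleus. The same nuclei also hold RNA of pericyte genes. All 8 pericyte markers were counted, at a summed 8338 CPM in control and 7066 in CKO, led by *Rgs5*. *Tgfbr1* itself was at 69.1 CPM in control EC nuclei (95% interval 62.5 to 76.2) and at 62.9 (57.1 to 69.1) in CKO, but a count for the whole gene also takes in transcripts lacking the floxed segment, so these values do not check the deletion. Intervals throughout are 95% intervals for counting error only, exact Poisson for CPM, exact binomial for shares and exact conditional binomial for ratios. With 1 library per genotype the brain differences have no replicate check and carry no test. The libraries share 2 nucleus barcodes. They also differ in sex-linked RNA: *Xist* was at 2247 CPM in control EC nuclei and at 0.292 in CKO, and 4 Y chromosome genes together were at 201 and 466 CPM.

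The members separate by their ratios in EC nuclei. *Apln*, *Trp53i11* and *Aplnr* were higher in CKO with intervals above 1, *Cxcr4* was lower with an interval below 1, and the intervals of *Mcam*, *Plaur*, *Esm1* and *Kcne3* hold 1. Of the 13154 genes with at least 20 UMIs, 36% had an interval above 1 and 19% an interval below 1. Of the 8 members, 7 had at least 20 UMIs over both libraries. Of these, 0 reached a CKO over control ratio of 2, against 11.2% of the 13154 genes with at least 20 UMIs, and 0 were at or below 0.5, against 5.79%. At a ratio of 1.5 the count was 3 of 7, *Apln*, *Trp53i11* and *Esm1*, against 22.8% of all genes. The median log2 ratio of the 7 members was 0.52, beside 0.14 for all 13154 genes, so the typical gene was itself slightly higher in CKO. Scaling by trimmed means (TMM) lowers every log2 ratio by 0.10 and leaves the order of the members as it is. The members past each fold change with the nuclei taken. Of nuclei called by at least 2 of the 9 EC markers, 80.2% in control and 95.1% in CKO carry the EC label. A larger share of the control set thus lacks that label, and the part of such nuclei in the ratios was not tested. In this set *Apln* passed a fold of 2, at 2.41 (2.25 to 2.59). *Aplnr*, at 1.83, passed 1.5 there, whereas *Trp53i11*, at 1.46, and *Esm1*, at 1.33, did not.

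Of the ligands, *Apln* held most of the difference. Apelin is a secreted peptide that acts through the receptor encoded by *Aplnr*. EC nuclei held 1163 UMIs of *Apln* in the control, or 200 CPM (189 to 212), and 2469 in CKO, or 360 CPM (346 to 375), a ratio of 1.80 (1.68 to 1.93). The transcript was thus abundant in control ECs and more so in CKO ECs. Of all 13154 genes, 14.6% had a ratio at least as high. These take in genes with as few as 20 UMIs. A ratio of at least 2 was reached by 11.2% of them, and by 5.33% of the 7924 genes with at least 200 UMIs. A UMI of *Apln* was present in 457 control EC nuclei, or 18.5% (17.0 to 20.1), and in 879 CKO EC nuclei, or 29.9% (28.2 to 31.5). After each nucleus was thinned to 1000 UMIs, which leaves 1470 control and 1889 CKO nuclei, the shares were 13.4% and 22.2% and the gap remained at equal depth. Nuclei with *Apln* carried 2.54 UMIs of it on average in control and 2.81 in CKO, with up to 18 and 22 in 1 nucleus. More nuclei with the transcript, more than a higher count in each, separate the libraries.

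*Apln* lies on the X chromosome, and the control library holds nuclei with and without *Xist* RNA. In the control, 1287 EC nuclei had a UMI of *Xist* and none of the Y genes, 324 had a Y gene UMI and no *Xist*, 285 had both and 579 neither. In CKO, 1407 had a Y gene UMI and no *Xist*, 1535 had neither, 1 had *Xist* without a Y gene and 1 had both. The control pool therefore carries RNA of both kinds and the CKO pool almost none with *Xist*. Within the control, *Apln* was at 198 CPM (182 to 215) in nuclei with *Xist* and no Y gene RNA and at 155 (136 to 176) in nuclei with both. In nuclei with Y gene RNA and no *Xist* it was at 266 (234 to 303) in control and at 331 (315 to 347) in CKO. Among nuclei with Y gene RNA and no *Xist*, a comparison chosen after the data had been seen, the ratio of *Apln* was 1.24 (1.08 to 1.43). Nuclei with neither kind of RNA, also compared after the data had been seen, were shallow, with medians of 639 and 866 UMIs. There *Apln* was at 236 CPM (197 to 281) in control and 444.5 (414 to 476) in CKO, a ratio of 1.88 (1.56 to 2.29). *Aplnr* kept a ratio of 1.46 (1.28 to 1.67) in nuclei with Y gene RNA and no *Xist* and 1.47 (1.25 to 1.75) in those with neither, and *Trp53i11* one of 1.53 (1.11 to 2.16) and 1.86 (1.21 to 2.96). The part of sex in the *Apln* ratio over all EC nuclei was not tested beyond these values.

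*Esm1*, the other ligand, encodes endocan, a secreted proteoglycan. It was near the detection limit, with 12 UMIs in 9 control EC nuclei and 24 UMIs in 20 CKO EC nuclei. These are 2.07 CPM (1.07 to 3.61) and 3.50 CPM (2.24 to 5.21), with a ratio of 1.69 (0.814 to 3.72). No difference was detectable at this depth, and the transcript was nearly absent from the brain ECs of both genotypes.

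Of the receptors, *Aplnr*, which encodes the G protein-coupled receptor for apelin, was detected in the largest share of nuclei. It had 1722 UMIs in control EC nuclei, or 297 CPM (283 to 311), and 2925 in CKO, or 427 CPM (412 to 443), a ratio of 1.44 (1.35 to 1.53). The receptor was thus higher together with its ligand. Its ratio was below that of *Apln* over all EC nuclei and above it in nuclei with Y gene RNA and no *Xist* and in non-cycling nuclei. It was found in 34.2% of control EC nuclei (32.3 to 36.1) and 46.5% of CKO EC nuclei (44.7 to 48.3), and in 23.4% and 32.0% after thinning.

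*Cxcr4*, the receptor for the chemokine CXCL12, went the other way. It was at 66.9 CPM (60.4 to 73.9) in control EC nuclei, from 388 UMIs, and at 55.8 CPM (50.3 to 61.6) in CKO, from 382 UMIs, and the ratio was 0.834 (0.722 to 0.963). The level in CKO was slightly lower by this label. In nuclei called by at least 2 of the 9 EC markers, of which 80.2% in control and 95.1% in CKO carry the EC label, the ratio was 1.02 (0.886 to 1.17). In EC nuclei without an immune marker UMI it was 0.844 (0.706 to 1.01). Both intervals hold 1, so no difference was detectable in these nuclei, although the second ratio is close to that over all EC nuclei. The interval stayed below 1 under TMM scaling, at 0.776 (0.672 to 0.896), and in EC nuclei with at least 1000 UMIs, at 0.836 (0.716 to 0.976). With Y gene RNA and no *Xist* the ratio was 0.689 (0.524 to 0.918), and with neither 0.991 (0.681 to 1.47). The shares of nuclei were 11.5% (10.3 to 12.8) and 10.2% (9.15 to 11.4), and 6.63% and 5.34% after thinning.

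*Plaur* encodes the receptor that holds urokinase at the cell surface. It was at 21.03 CPM (17.5 to 25.1) in control and 18.5 CPM (15.5 to 22.1) in CKO EC nuclei, from 122 and 127 UMIs, a ratio of 0.881 (0.682 to 1.14). No difference was detectable, and 4.40% of control and 3.87% of CKO EC nuclei had a UMI.

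The last 3 members are an adhesion molecule, a channel subunit and a membrane protein. *Mcam* encodes CD146, an adhesion molecule at EC junctions that pericytes and smooth muscle cells also make, and it was at 175 CPM (165 to 187) in control and 190 CPM (180 to 201) in CKO EC nuclei, a ratio of 1.08 (0.998 to 1.18). That interval holds 1. Under TMM scaling the ratio was 1.01, whereas in nuclei called by at least 2 of the 9 EC markers it was 1.11 (1.03 to 1.19), with an interval above 1. *Kcne3*, an accessory subunit of voltage-gated potassium channels, had 4 UMIs in control and 12 in CKO EC nuclei, each in a nucleus of its own, for 0.689 and 1.75 CPM and a ratio of 2.54 (0.770 to 10.8). With 16 UMIs over both libraries it was not counted for or against the fold, and no difference was detectable over the EC label. In nuclei called by at least 2 EC markers the interval was above 1, at a ratio of 3.51 (1.06 to 14.9). Of those nuclei, 80.2% in control and 95.1% in CKO carry the EC label, so that ratio is not one of EC nuclei alone. The part of the other nuclei in it was not tested. *Trp53i11*, named for its induction by p53, had 244 UMIs in control EC nuclei, or 42.1 CPM (36.9 to 47.7), and 524 in CKO, or 76.5 CPM (70.1 to 83.3). Its ratio of 1.82 (1.56 to 2.13) is next to that of *Apln*, and 13.3% of CKO against 6.83% of control EC nuclei had a UMI.

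**Figure D1:**
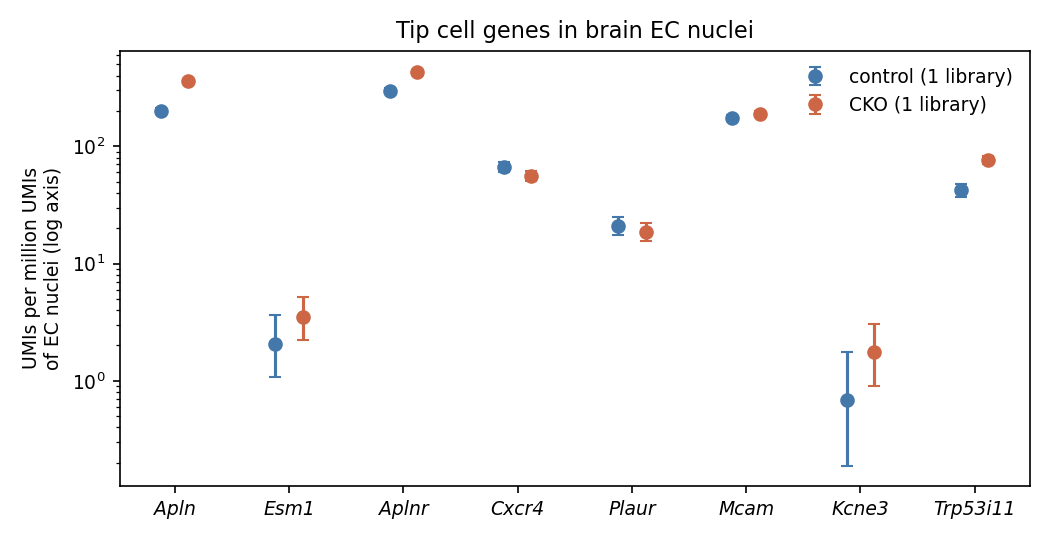
Level of each gene in brain EC nuclei of the control (blue) and CKO (orange) library, in CPM on a log axis; points are the 1 library per genotype and bars the exact Poisson 95% interval. *Apln* (200 and 360), *Aplnr* (297 and 427) and *Trp53i11* (42.1 and 76.5) are separated, *Mcam* and *Plaur* overlap, and *Esm1* and *Kcne3* lie near the floor.

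The EC nuclei were also divided by cell cycle RNA, and the ratios of several members differed between the classes, a difference that was not tested. Nuclei with at least 2 UMIs of 13 cycling genes made up 220 of the control EC nuclei, or 8.89% (7.80 to 10.1), and 724 of the CKO EC nuclei, or 24.6% (23.0 to 26.2). All 13 cycling genes were counted in both libraries, with a summed 363 CPM in control and 737 in CKO and *Top2a* as the most abundant. In 10 neuron labels (all but Glut_20), where little cycling is known, 0.608% and 0.146% of nuclei passed the same rule at medians of 2540 and 1882 UMIs. The class is a range along a count and not a cell type, and 57 control and 186 CKO nuclei lie at the limit with exactly 2 UMIs.

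In nuclei below the limit, *Apln* was at 212 CPM (199 to 226) in control and 272 CPM (257 to 289) in CKO, a ratio of 1.28 (1.18 to 1.40). In cycling nuclei it was at 146 CPM (124 to 171) in control and 500 CPM (473 to 527) in CKO, a ratio of 3.42 (2.89 to 4.08). Over all EC nuclei, cycling nuclei were thus the lower class for *Apln* in control and the higher class in CKO, and they held 13.0% of its UMIs in control against 53.7% in CKO. The value in control differed with sex-linked RNA: cycling nuclei with *Xist* and no Y gene RNA, 98 in number, had 82.9 CPM (57.7 to 115), whereas the 31 with Y gene RNA and no *Xist* had 326 CPM (243 to 429). In control nuclei with Y gene RNA and no *Xist* the order was turned, since the non-cycling ones had 254 CPM (218 to 293), although the intervals overlap. In CKO the 459 cycling nuclei with Y gene RNA and no *Xist* had 422 CPM (396 to 450), so between nuclei of this kind the ratio was 1.29 (0.976 to 1.75) and its interval holds 1. In the non-cycling nuclei of this kind it was 1.01 (0.861 to 1.198). Among cycling nuclei with neither kind of RNA it was 5.17 (2.48 to 12.9), from 7 UMIs in control and 378 in CKO, and among the non-cycling ones 1.26 (1.03 to 1.56), from 120 and 423.

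*Trp53i11* followed the same order over all EC nuclei. It was at 45.5 CPM (39.7 to 52.0) and 62.2 CPM (54.9 to 70.2) in the non-cycling nuclei of control and CKO, and at 26.1 CPM (17.2 to 37.99) and 99.1 CPM (87.5 to 112) in the cycling nuclei, from 27 and 263 UMIs. The ratio was 1.37 (1.14 to 1.64) outside the cycling class and 3.80 (2.55 to 5.87) inside it, and 1.58 (0.815 to 3.50) in cycling nuclei with Y gene RNA and no *Xist*. In non-cycling nuclei it was 1.28 (0.876 to 1.92) with Y gene RNA and no *Xist* and 1.44 (0.916 to 2.36) with neither, and these intervals hold 1. In control nuclei with Y gene RNA and no *Xist*, *Trp53i11* was at 57.6 CPM (26.3 to 109) in cycling and 45.2 CPM (31.1 to 63.5) in non-cycling nuclei, so the order was turned there too and the intervals overlap. In control nuclei with neither, the order was not turned, at 25.6 CPM, from 1 UMI, in cycling and 48.2 in non-cycling nuclei. The receptor of apelin behaved differently. *Aplnr* was at 275 CPM (261 to 291) in control and 418 CPM (399 to 438) in CKO non-cycling nuclei, and at 396 CPM (358 to 436) and 441 CPM (416 to 467) in cycling nuclei. Its ratio was 1.52 (1.41 to 1.63) in non-cycling nuclei, while the interval in cycling nuclei, 0.994 to 1.25, holds 1. That call changes with the limit. In nuclei with at least 1 cycling UMI, chosen after the data had been seen, the ratio was 1.24 (1.13 to 1.37). The difference between the classes was not tested.

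*Cxcr4* had opposite directions in the 2 classes over all EC nuclei. Its ratio was 0.797 (0.675 to 0.939) in non-cycling and 1.57 (1.07 to 2.37) in cycling nuclei, where it rested on 33 control and 133 CKO UMIs. In cycling nuclei with Y gene RNA and no *Xist* it was at 44.8 CPM (18.0 to 92.3) in control, from 7 UMIs, and 50.3 (41.5 to 60.5) in CKO, a ratio of 1.12 (0.528 to 2.86), so no difference was detectable there. In non-cycling nuclei of this kind the ratio of *Cxcr4* was 0.645 (0.474 to 0.889), and in non-cycling nuclei with neither kind of RNA 1.05 (0.710 to 1.59). *Mcam* was at 180 and 181 CPM in non-cycling nuclei, a ratio of 1.00 (0.908 to 1.11), and at 154 CPM (131 to 180) and 206 CPM (189 to 224) in cycling nuclei, a ratio of 1.34 (1.12 to 1.61). In the cycling nuclei with Y gene RNA and no *Xist* the values were 173 CPM (114 to 251) and 202 (184 to 221), a ratio of 1.17 (0.792 to 1.79) that holds 1 in its interval. For *Plaur* both intervals hold 1, and for *Esm1* and *Kcne3* the counts per class, at most 13 UMIs, are too low to separate the libraries. All 8 *Kcne3* UMIs of cycling nuclei came from CKO, at 3.01 CPM (1.30 to 5.94), while the upper limit for 0 UMIs in the control is 3.57 CPM.

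**Figure D2:**
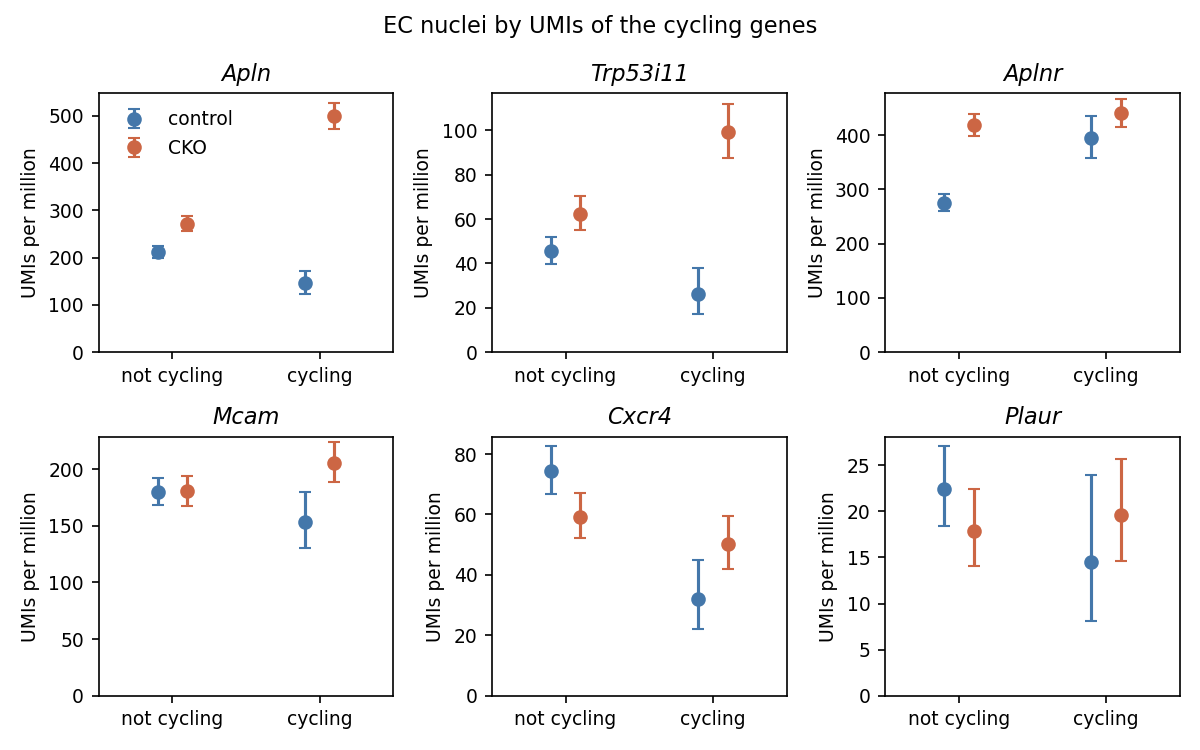
CPM of the EC nuclei without and with at least 2 UMIs of the cycling genes, in the control (blue) and CKO (orange) library; bars are exact Poisson 95% intervals and each axis starts at 0. *Apln* and *Trp53i11* are lower in cycling than in non-cycling control nuclei and higher in CKO (146 against 212 and 500 against 272 for *Apln*). At this limit the ratio of *Aplnr* was 1.52 outside and 1.11 inside the cycling class, and it was 1.24 in nuclei with at least 1 cycling UMI.

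Among nuclei with a vessel class, *Apln* was lowest in the arterial one. EC nuclei were assigned to the arterial, capillary or venous gene list with most UMIs, which gave 130, 2194 and 97 nuclei in control and 160, 2488 and 82 in CKO, and left 54 and 214 without a class. In the control, *Apln* was at 215 CPM (203 to 228) in capillary nuclei, at 79.2 (29.1 to 172) in venous nuclei, and had 0 UMIs in arterial nuclei, with an upper limit of 10.3 CPM. In CKO the 3 values were 364 CPM (349 to 380), 304 CPM (213 to 421) and, from 8 UMIs, 20.7 CPM (8.92 to 40.7), and the interval of the arterial ratio starts at 1.58. In the nuclei without a class, which were shallow at medians of 554 and 572 UMIs, *Apln* was at 276 CPM (143 to 483) in control and at 940 CPM (810 to 1086) in CKO, the highest of all classes in CKO. Arterial nuclei were thus lowest in both libraries, and the capillary and venous intervals are apart in control and overlap in CKO. *Aplnr* had the same low arterial level, 19.6 CPM (7.87 to 40.3) in control and 64.6 (41.8 to 95.3) in CKO, beside 319 and 449 CPM in capillary nuclei and 145 (72.5 to 260) and 592 (461 to 748) in venous nuclei. The highest *Aplnr* level of any class was thus in the few venous nuclei of CKO.

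*Cxcr4* and *Mcam* did not share the low arterial level. In CKO, *Cxcr4* was at 95.6 CPM (67.3 to 132) in arterial and 52.0 (46.5 to 58.1) in capillary nuclei, and in control at 61.5 (38.5 to 93.1) and 68.4 (61.5 to 75.8). *Mcam* was at 179 and 177 CPM in arterial and capillary control nuclei and at 240 (194 to 294) and 183 (173 to 194) in CKO. The classes rest on few UMIs in CKO: the winning list led by a single UMI in 26.3% of arterial and 39.0% of venous CKO nuclei, against 13.1% and 14.4% in control. Capillary nuclei themselves held 12489 CPM of the capillary genes in control and 6136 in CKO, so the same class name covers nuclei of different content in the 2 libraries.

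Most EC nuclei carried pericyte RNA, 2113 in control and 2812 in CKO with at least 1 UMI of the 8 pericyte markers. In these nuclei the ratio of *Apln* was 1.72 (1.599 to 1.84), that of *Aplnr* 1.42 (1.34 to 1.51) and that of *Trp53i11* 1.76 (1.503 to 2.06). The 362 control and 132 CKO nuclei without such a UMI were shallow, with medians of 504 and 449 UMIs. There *Apln* was at 53.6 CPM (27.7 to 93.7) in control and 921 CPM (718 to 1163) in CKO, from 12 and 70 UMIs, a ratio of 17.2 (9.24 to 34.8). The direction was thus the same and the gap wider where pericyte markers were at 0, in nuclei that held 1.03% and 2.84% of the *Apln* UMIs of ECs. The wider gap was not particular to *Apln*. Intervals were above 1 there for *Trp53i11* at 7.36 (3.10 to 19.3), *Mcam* at 4.63 (1.64 to 14.1) and *Aplnr* at 2.02 (1.26 to 3.22). The intervals of *Cxcr4*, *Plaur* and *Kcne3* hold 1, and *Esm1* had 0 UMIs.

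Across the 21 labels, *Apln* and *Aplnr* were EC transcripts in these brains. EC nuclei held 96.0% of the *Apln* UMIs of the control library and 99.1% of those of CKO, and 90.8% and 98.6% of those of *Aplnr*. After ECs, *Apln* came in control to 49.2 CPM (18.1 to 107) in pericytes, from 6 UMIs, and to 15.2 (6.55 to 29.9) in the label Glut_20, from 8 UMIs. In vascular smooth muscle cells (vSMCs) of the control it came to 11.0 (6.40 to 17.6), and the interval of Glut_20 overlaps both others. In CKO it came to 31.0 (13.4 to 61.0) in vSMCs. *Aplnr* was next highest in vSMCs, at 84.7 CPM (70.8 to 101) in control and 135 (94.4 to 188) in CKO. Nuclei labeled vSMCs also held the 9 EC markers at a summed 4291 CPM in control and 4138 in CKO, and the part of EC RNA in their *Aplnr* UMIs was not tested. The label Glut_20, with 329 control and 170 CKO nuclei, had 8 and 0 UMIs of *Apln* and 4 and 5 of *Aplnr*. It held oligodendrocyte markers at a summed 6358 CPM in control and 5524 in CKO beside neuron markers at 6785 and 6839, and the choice to leave it out of the neuron labels was made after the data had been seen. In the other 10 neuron labels, which should lack these genes, *Apln* had 4 UMIs in 7900 control nuclei and 3 in 8196 CKO nuclei, and *Aplnr* 1 and 0, at medians of 2540 and 1882 UMIs per nucleus. These are levels left after the background removal that the authors describe, so they do not measure the free RNA of the original droplets. *Trp53i11* was the member found most often in these 10 labels, in 0.354% of control and 0.0732% of CKO nuclei, still far below its share of EC nuclei.

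*Plaur* was also mainly in ECs, which held 84.7% of its UMIs in control and 90.7% in CKO. *Cxcr4* was shared between ECs and the label CP_6. There it was at 70.6 CPM (61.8 to 80.3) in control and 54.1 CPM (42.5 to 68.0) in CKO, from 233 and 74 UMIs, levels that do not differ from those of ECs in the same library. The genes that lead CP_6, named after their values were seen, are *Dnah12*, *Tmem212*, *Rgs22* and *Spag17*, of which *Dnah12* encodes an axonemal dynein, and the 9 EC markers were at a summed 68.8 CPM in control and 72.4 in CKO, far below their level in ECs. A UMI of *Cxcr4* was found in 16.2% of control and 8.85% of CKO nuclei of CP_6. Microglia are a known site of *Cxcr4*, but the microglia label, with 129 control nuclei of 79925 UMIs and 11 CKO nuclei of 14637 UMIs, had 0 UMIs of all 8 members, with upper limits of 46.2 and 252 CPM.

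*Mcam* was a mural and oligodendrocyte transcript as well. In the control it was at 575 CPM (448 to 726) in pericytes, 318 (291 to 347) in vSMCs, 175 (165 to 187) in ECs and 139 (121 to 158) in oligodendrocytes, and these 4 intervals do not overlap. In CKO the order was vSMCs at 321 (256 to 398), ECs at 190 (180 to 201) and oligodendrocytes at 143 (117 to 173), while the 22 pericyte nuclei had 0 UMIs of *Mcam* among 9213, with an upper limit of 400 CPM. Between the libraries, vSMCs had a ratio of 1.01 (0.791 to 1.28) and oligodendrocytes one of 1.03 (0.807 to 1.31). For pericytes, with 70 UMIs in control and 0 in CKO, the interval of the ratio ends at 0.716, below 1, whereas no difference was detectable in vSMCs and oligodendrocytes. The pericyte markers were themselves lower in this label, at a summed 27625 CPM in control, with 8 of 8 counted, and 14870 in CKO, with 7 of 8. The 9 EC markers were at 1773 and 2822 CPM there, and the part of the content of the label in the *Mcam* values was not tested.

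*Trp53i11* was highest outside ECs, in nuclei labeled glia. There it was at 292 CPM (267 to 319) in control and 288 (243 to 340) in CKO, a ratio of 0.988 (0.815 to 1.19). These nuclei held all 6 fibroblast markers at a summed 4680 CPM in control and 4273 in CKO, with *Col1a2* as the most abundant, and 6 astrocyte markers at 2059 and 1863 CPM, so the label does not match 1 glial type. In vSMCs *Trp53i11* was at 102 CPM (86.3 to 119) and 89.0 CPM (56.4 to 134), a ratio of 0.877 (0.540 to 1.36). The intervals of both ratios hold 1, and the difference between these labels and ECs was not tested. *Esm1* was also highest in the glia label, at 6.93 CPM (3.58 to 12.1) in control and 30.0 CPM (16.8 to 49.6) in CKO, from 12 and 15 UMIs, a ratio of 4.34 (1.90 to 10.2). Of the *Esm1* UMIs, ECs held 12 of 39 in control and 24 of 39 in CKO, so endocan RNA in these brains was not specific to ECs.

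**Figure D3:**
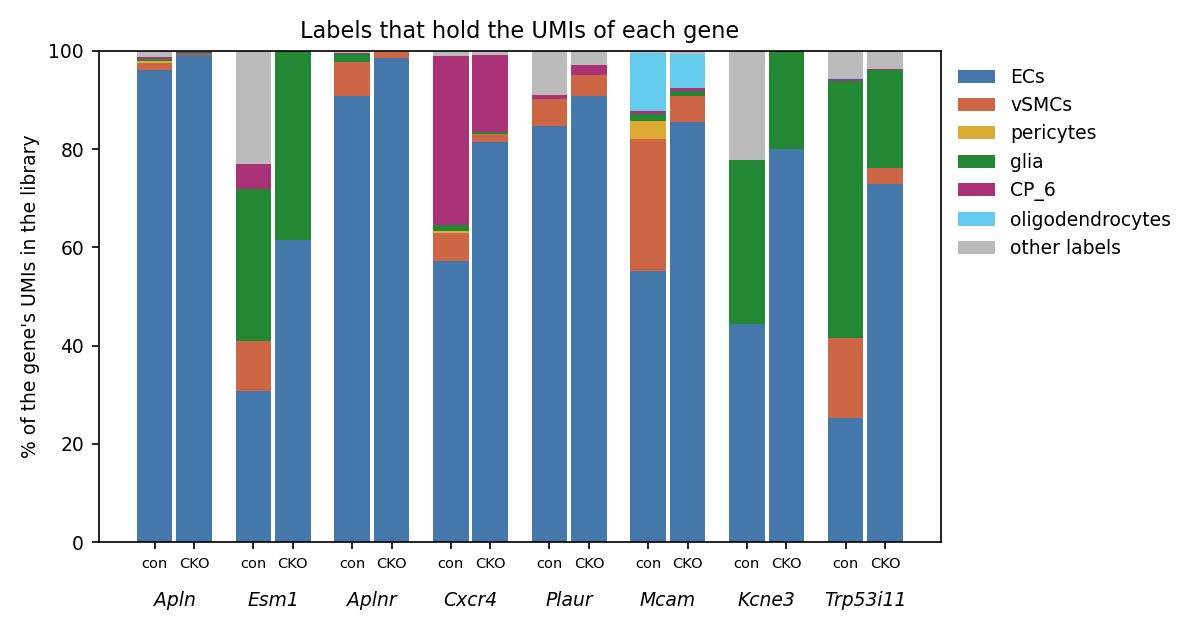
Percent of each gene's UMIs in the control (con) and CKO brain library that fall in nuclei of each label, as stacked bars from 0 to 100. ECs hold 96.0% and 99.1% of *Apln* UMIs, but 25.2% and 72.9% of those of *Trp53i11*, where the glia label holds 52.3% and 20.0%; the shares also move with the number of nuclei per label.

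Genes around the members gave the context. In the apelin axis the second ligand *Apela* had 0 UMIs in control and 5 in CKO EC nuclei, so apelin was the ligand present. In the CXCL12 axis the ligand *Cxcl12* was at 1807 CPM (1773 to 1842) in control and 1298 (1271 to 1325) in CKO EC nuclei, a ratio of 0.718 (0.698 to 0.739), and the scavenging receptor gene *Ackr3* was at 205 and 196 CPM, with an interval of its ratio, 0.884 to 1.04, that holds 1. The ligand was thus lower in CKO EC nuclei, while *Cxcr4* was lower over all nuclei with the EC label and had no detectable difference in nuclei called by EC markers. Of the 3 genes, 0 passed a fold of 2 in either direction, and the median log2 ratio was -0.26.

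Partners of *Plaur* were lower or unchanged. *Plat*, tissue plasminogen activator, had a ratio of 0.602 (0.568 to 0.638), *Serpine2*, a protease inhibitor gene, one of 0.748 (0.695 to 0.806), and *Lrp1*, the clearance receptor, one of 0.900 (0.785 to 1.03). Urokinase itself, *Plau*, had 9 and 6 UMIs. The receptor *Plaur* was thus counted in ECs with hardly any transcript of its ligand. Among the relatives and channel partners of *Kcne3*, *Kcnq1* was at 221 CPM in control and 119 in CKO, a ratio of 0.538 (0.492 to 0.588), *Kcnq5* had a ratio of 1.19 (1.01 to 1.40) and *Kcne4* one of 1.04 (0.699 to 1.56). *Kcne1* and *Kcne2* had 2 and 1 UMIs in control and 1 and 3 in CKO, so like *Kcne3* they were near the detection limit.

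Other genes known from tip cells went both ways. Of 19 such genes, all with at least 20 UMIs, 7 had an interval above 1, against 36% of the 13154 genes, and 9 an interval below 1, against 19%. Among them 0 were past a fold of 2 in either direction, and their median log2 ratio was 0.09, beside 0.14 for all genes. The extremes were *Adm*, the gene of adrenomedullin, with a ratio of 1.498 (1.17 to 1.92), and *Flt4*, a VEGF receptor gene, with 0.503 (0.438 to 0.577). *Angpt2*, which encodes an antagonist of the TIE2 receptor, was at 143 CPM in control and 193 in CKO, a ratio of 1.35 (1.24 to 1.47), and the guidance receptor gene *Unc5b* had a ratio of 1.47 (1.38 to 1.58). The Notch ligand gene *Dll4* was at 203 and 149 CPM, a ratio of 0.736 (0.676 to 0.801), *Pdgfb*, the signal of ECs to pericytes, had a ratio of 0.801 (0.763 to 0.841) and *Kdr*, the main VEGF receptor gene, one of 0.870 (0.843 to 0.897). These 7 genes were picked for naming after their values had been seen.

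Of 10 stalk cell genes, 5 had an interval below 1, against 19% of the 13154 genes, 1 an interval above 1, against 36%, and 4 an interval that holds 1. The median log2 ratio was -0.32. A fold of 2 was passed downward by 1 of 10, beside 5.79% of all genes, and upward by 0: *Hes1*, a Notch target, was at 1063 CPM (1037 to 1090) in control and 385 CPM (370 to 400) in CKO, a ratio of 0.362 (0.346 to 0.379). *Hes1* also responds to other pathways. Of the other Notch targets of the list, *Hey2* had a ratio of 0.660 (0.528 to 0.825), while *Hey1* and *Nrarp* had ratios of 0.970 (0.859 to 1.09) and 0.925 (0.797 to 1.07), intervals that hold 1. The cycling list went the opposite way, with 7 of 13 genes past a fold of 2 upward, beside 11.2% of all genes, 0 downward and a median log2 ratio of 1.00. Its highest ratios were those of *Kif11* at 2.47 (1.95 to 3.15), *Anln* at 2.43 (1.94 to 3.06), *Mki67* at 2.29 (1.95 to 2.70) and *Cenpe* at 2.12 (1.76 to 2.57). Of the markers of other cells in EC nuclei, the 8 neuron markers were at a summed 430 CPM in control and 505 in CKO, led by *Meg3*, and the 6 astrocyte markers at 367 and 380, led by *Gja1*. The 6 fibroblast markers were at 642 and 442 CPM, led by *Col1a2*, the 5 markers of oligodendrocyte precursors at 46.0 and 22.0, led by *Pdgfra*, and the 5 oligodendrocyte markers at 52.2 and 54.4. The median log2 ratio was -0.28 over 8 pericyte markers, with 0 past the fold, -0.08 over 5 vSMC markers, with *Lmod1* at 0.470 (0.194 to 1.07) from 28 UMIs past it downward, and -0.49 over 9 microglia and immune markers, with *C1qa* at 0.432 (0.323 to 0.574) past it downward. The 9 EC markers had a median of -0.22, with 0 past the fold.

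Members were counted together more often in CKO. At least 1 member had a UMI in 57.9% of control EC nuclei (55.9 to 59.9) and 69.9% of CKO EC nuclei (68.2 to 71.6), at least 2 members in 27.3% (25.6 to 29.1) and 38.6% (36.8 to 40.3), and at least 3 in 11.4% (10.2 to 12.7) and 16.6% (15.3 to 18.0). Nuclei with 3 or more members were deep, with medians of 3808 and 3698 UMIs, against 722 and 771 in nuclei with none. Thinned to 1000 UMIs, 47.4% of control and 58.8% of CKO nuclei kept a UMI of any member, so the higher share with at least 1 member remains at equal depth. The shares with at least 2 or 3 members were not thinned, so depth was not matched for members counted together. No control nucleus had more than 7 members and no CKO nucleus more than 6.

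Ligand and receptor of the apelin axis were found in the same nuclei as well as in different ones. In control, 251 EC nuclei had both *Apln* and *Aplnr*, 206 only *Apln* and 595 only *Aplnr*, and in CKO the counts were 574, 305 and 794. Among control nuclei of 1000 to 2000 UMIs, *Apln* was present in 26.8% of those with *Aplnr* and 11.4% of those without. In CKO nuclei of the same depth the shares were 38.2% and 21.2%. From 2000 to 4000 UMIs they were 28.4% and 22.7% in control and 42.9% and 28.8% in CKO, in control the narrowest gap of the 5 depth ranges. Nuclei with the receptor thus held the ligand more often than nuclei without it in both libraries, which describes the nuclei and does not place the genes in separate EC states. *Trp53i11* was the member of the 6 with at least 100 UMIs most often found with another: 92.9% of 169 control nuclei with its UMI and 88.8% of 393 CKO nuclei also had another member, against 54.8% and 65.3% of nuclei without, at medians of 3073 and 3097 against 1272 and 1332 UMIs.

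Over 38 points, each a label in a library with at least 100000 UMIs, the genes whose log2(CPM + 1) went most with each member are given by name and with their r. For *Apln* they were *Flt4* (Pearson r = 0.957), *Bcl6b* (0.9501) and *Nos2* (0.948), and for *Aplnr* *C130074G19Rik* (0.984), *Tmem252* (0.983) and *Ecscr* (0.976). These values show which labels a gene shares, since ECs are the high points for both. For *Plaur* they were *Pkn3* (0.908), *Grb7* (0.890) and *Slc38a5* (0.882), and for *Cxcr4* *Akip1* (0.961), *Aif1l* (0.958) and *Rarres2* (0.957). For *Mcam* they were *Pde8a* (0.946), *Parvb* (0.915) and *Tmem63a* (0.912), and for *Trp53i11* *Thbd* (0.927), *Nbl1* (0.922) and *Col3a1* (0.908). The points of 1 library share its depth and free RNA and are not independent. *Flt4* illustrates the limit of such likeness, because across labels it was nearest to *Apln* while between the libraries it was at 96.9 CPM in control and 48.7 in CKO EC nuclei, the opposite direction.

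The members lie on 6 chromosomes of the GRCm39 build and do not form 1 cluster. *Apln* spans chrX:47114019-47123775 on the minus strand, *Trp53i11* chr2:93000672-93032173 and *Aplnr* chr2:84966569-84970267, both on the plus strand. *Esm1* is at chr13:113346021-113354632, *Cxcr4* at chr1:128515936-128520044 on the minus strand and *Mcam* at chr9:44045504-44054025. *Plaur* at chr7:24161875-24175394 and *Kcne3* at chr7:99825401-99836141 share a chromosome but not a neighborhood.

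The 250 bases before the start of *Apln* and *Trp53i11* are shown. Among members with at least 20 UMIs, these 2 had the highest ratios over all EC nuclei. In nuclei called by at least 2 EC markers their ratios were 2.41 and 1.46, and whether they move together was not tested. The stretches come from RefSeq on build GRCm38.p6, where 7 of the 8 members have an entry. They lie at chrX:48034854-48035103 on the minus strand and chr2:93187298-93187547 on the plus strand. Capitals mark CAGAC, the core of a SMAD site, and GGAAG, the core of an ETS site, on either strand; ACGTG, the core of a hypoxia-inducible factor site, was also searched and has 0 matches in both. These letters do not overlap in these sequences.
Apln: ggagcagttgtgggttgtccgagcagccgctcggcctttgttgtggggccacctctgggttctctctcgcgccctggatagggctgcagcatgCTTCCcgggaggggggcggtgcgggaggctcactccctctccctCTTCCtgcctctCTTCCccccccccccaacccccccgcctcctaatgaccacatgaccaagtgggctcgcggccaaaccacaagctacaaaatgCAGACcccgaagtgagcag
Trp53i11: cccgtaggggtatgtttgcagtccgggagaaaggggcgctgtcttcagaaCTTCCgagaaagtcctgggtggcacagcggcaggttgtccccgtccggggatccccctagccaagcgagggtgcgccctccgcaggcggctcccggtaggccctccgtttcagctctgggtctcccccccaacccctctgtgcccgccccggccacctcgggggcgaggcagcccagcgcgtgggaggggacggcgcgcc
The *Apln* stretch holds 3 GGAAG matches and 1 CAGAC match, and that of *Trp53i11* 1 GGAAG match and 0 of CAGAC. Over all 32851 promoters of this length, 64.1% hold GGAAG, 42.2% CAGAC and 16.6% ACGTG, so the matches are common ones and describe the letters only. The stretches of *Cxcr4*, *Mcam* and *Esm1* hold 0 matches of the 3 motifs, and that of *Plaur* holds 4 of GGAAG. *Kcne3* has 2 entries, the first with 0 matches of CAGAC, 1 of ACGTG and 2 of GGAAG and the second with 3, 0 and 2.

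In whole retina the members were rare, and none of the 11 labels of retinal nuclei is an EC label, so these values are of the whole tissue, in which fewer cells of a type and less RNA per cell cannot be told apart. *Apln* had 7 UMIs in the control library, or 0.226 CPM (0.0908 to 0.465), and in the 11 CKO libraries the lowest value was 0, the median 0.973 and the highest 2.13 CPM. The control lay below 10 of the 11 CKO libraries, and the exception, CKO replicate 4, holds 104 nuclei and 90449 UMIs. An exact permutation test over libraries, two-sided, gave p = 0.333, and without replicate 4 p = 0.182, and with 1 control library no p below 0.05 was possible. Within batch 1, which holds the control, 3 of 3 CKO libraries were above it, at 0.311 to 1.17 CPM; the other batches have no control.

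Of the retinal nuclei, which have no EC, pericyte or vSMC label, Müller glia held most of the *Apln* UMIs. They carried 58.3% of its CKO UMIs, at 2.65 CPM (0.721 to 6.78) in the control and a median of 10.2 CPM in CKO, from 0 in replicates 3 and 4 to 25.4 in replicate 11, and 9 of 11 CKO libraries were above the control. *Mcam* had a like distribution. In whole retina it was at 0.807 CPM (0.522 to 1.19) in the control and from 0 to 2.44 CPM in CKO with a median of 2.01, above the control in 10 of 11 libraries (exact permutation p = 0.25, and p = 0.0909 without replicate 4, the smallest possible). Müller glia held 69.3% of its CKO UMIs, at 7.94 CPM (4.10 to 13.9) in the control and a median of 23.5 in CKO, and within batch 1 at 5.98 to 30.0. Among the labeled nuclei, most *Apln* and *Mcam* UMIs of CKO retinas were thus in Müller glia. The share in vascular cells of the retina cannot be read from these labels.

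Over all 11 CKO libraries, *Plaur* was the 1 member with a control value, 0.323 CPM (0.155 to 0.593), outside their range. That range was 0.432 to 55.3 CPM with a median of 0.752. The highest value rests on 5 UMIs in replicate 4, and without it the range was 0.432 to 1.24 (p = 0.167 with it and 0.182 without it, exact permutation tests). Without replicate 4, *Plaur* did not stand alone. The controls of *Apln* and *Mcam* then also lay below the lowest CKO values, 0.311 and 0.855 CPM. For *Plaur* within batch 1, which holds the control, the 3 CKO libraries were at 0.466 to 0.585 CPM, inside the interval of the control. Immune nuclei held 40.9% of the *Plaur* UMIs of CKO retinas, at 26.3 CPM (20.3 to 33.3), and 0 in the 29 immune nuclei of the control, with an upper limit of 32.2 CPM. *Trp53i11* was at 2.23 CPM (1.73 to 2.82) in the control and 0 to 3.35 in CKO with a median of 2.55, with the control inside the range. Its retinal UMIs were mainly in glycinergic amacrine cells, which held 69.6% of them in the control and 59.9% in CKO. *Cxcr4* had 3 control UMIs and *Aplnr* 3, and *Esm1* and *Kcne3* had 0, all inside the range of the CKO libraries. *Cxcr4* was at 0.0968 CPM (0.0200 to 0.283) in the control and at a median of 0.389 in CKO. It was above the control in 9 of 11 CKO libraries and in 2 of the 3 of batch 1 (exact permutation p = 0.333, and p = 0.273 without replicate 4).

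**Figure D4:**
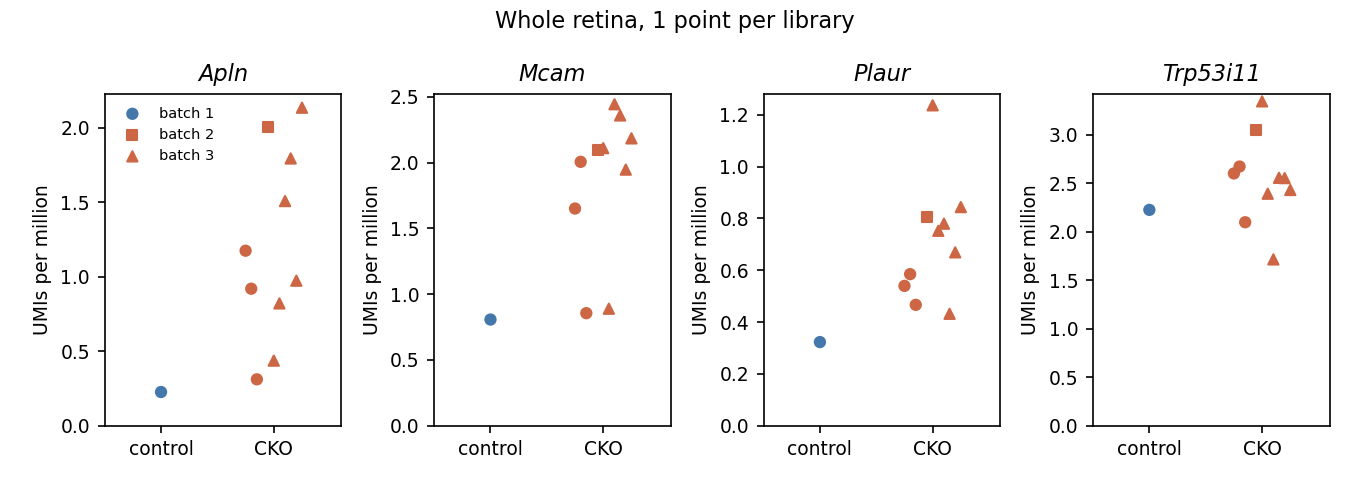
Level of 4 genes in whole retina, in CPM of the library, with 1 point per library of control (blue) and CKO (orange) mice and a marker shape per batch; each axis starts at 0, and CKO replicate 4, with 90449 UMIs, is not drawn. The control point of *Apln* (0.226), *Mcam* (0.807) and *Plaur* (0.323) lies below all 10 CKO points drawn, whereas that of *Trp53i11* (2.23) lies among them.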

How the data were processed

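The authors deposited whole UMI counts per gene and nucleus, with a cell label for every nucleus, and these counts were used without further correction. Their methods describe background removal with CellBender, doublet removal with SOLO and manual removal of mixed nuclei, and no further doublet step was applied here. The labels name mm10 and Seurat without a version, while the methods of the study name GRCm39. Counts were summed per label and library and divided by the summed UMIs of those nuclei (CPM). Members and gene lists were chosen with earlier results of these data known. Genes needed at least 20 UMIs over both brain libraries to be counted against a fold of 2, and a fold of 1.5 was also read. A count of 0 is given with its exact Poisson upper limit. Detection shares were also given after hypergeometric thinning to 1000 UMIs. Cycling nuclei had at least 2 UMIs of 13 cycling genes. The zonation class was the arterial (13 genes), capillary (8) or venous (11) list with most UMIs, with at least 2. TMM factors came from edgeR 4.0.16 and were used only for scaling. Alternatives tried were TMM scaling, nuclei called by 2 of 9 EC markers with or without the EC label, and a depth limit. Also tried were removal of nuclei with pericyte, immune or cycling UMIs, the mean CPM per nucleus, and other thinning depths, UMI limits and folds. Chosen after seeing the data were other cycling limits and nuclei with Y gene RNA and no *Xist* or with neither. Genes are named if they are members, partners of members, the nearest genes across labels, or up to 4 per list and direction past a fold of 2, and any other named gene was chosen after its value was seen. Retina libraries were compared with an exact permutation test over libraries. The code was tested on simulated data. R 4.3.3 ran edgeR, and all else ran in Python 3.11.15 with pandas 2.3.3, matplotlib 3.10.9, scipy 1.17.1 and numpy 2.4.6.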

Additional observations from a re-analysis of the deposited data

Results flagged for a closer look

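*Plaur* showed no detectable difference in brain EC nuclei, with a CKO over control ratio of 0.881 (0.682 to 1.14). In whole retina, which has no EC label, all 11 CKO libraries were above the control. The value of replicate 4 among them rests on 5 UMIs, and the 3 CKO libraries of batch 1 lay inside the interval of the control. Immune nuclei held 40.9% of the *Plaur* UMIs of CKO retinas. The difference between brain EC nuclei and whole retina was not tested.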

How the results depend on the processing

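No paired analysis was possible because each brain genotype has 1 library. Values that moved outside the interval of the first value are given by setting as CKO over control ratios in EC nuclei, and the cause was not tested for any of them. Under TMM scaling the ratio was 1.67 for *Apln* and 1.34 for *Aplnr*. Of nuclei with UMIs of at least 2 of the 9 EC markers, 80.2% in control and 95.1% in CKO carry the EC label. In them the ratio was 2.41 for *Apln*, 1.83 for *Aplnr*, 1.02 for *Cxcr4* (reversed), 1.17 for *Plaur* and 1.46 for *Trp53i11*. In EC nuclei without a pericyte marker UMI it was 17.2 for *Apln*, 2.02 for *Aplnr*, 8.83 for *Cxcr4* (reversed, from 1 and 3 UMIs), 4.63 for *Mcam*, 2.21 for *Plaur* and 7.36 for *Trp53i11*. In nuclei with fewer than 2 cycling UMIs it was 1.28 for *Apln* and 1.37 for *Trp53i11*. As mean CPM per nucleus it was 1.67 for *Apln*. In nuclei with a Y gene UMI and no *Xist*, chosen after seeing the data, it was 1.24 for *Apln*, 0.527 for *Kcne3*, 0.689 for *Cxcr4* and 1.53 for *Trp53i11*. In nuclei with neither kind of RNA, also chosen after seeing the data, it was 0.991 for *Cxcr4* and 0.581 for *Plaur*.

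In cycling nuclei, with limits chosen after seeing the data, at least 1 cycling UMI gave 2.42 for *Apln* and 2.37 for *Trp53i11*, and Y gene RNA without *Xist* gave 1.29 for *Apln* and 1.58 for *Trp53i11*. The share of EC nuclei with any member was 30.7% in control and 41.0% in CKO after thinning to 500 UMIs, 47.4% and 58.8% at 1000 and 66.9% and 77.9% at 2000. Of 16467 genes with at least 5 UMIs, 2371 (14.4%) were at a ratio of at least 2. With at least 200 UMIs these were 422 of 7924 (5.33%). Genes at or below 0.5 numbered 1600 (9.72%), 443 (3.90%) and 189 (2.39%) with at least 5, 50 and 200 UMIs. Members past the fold numbered 3 at a fold of 1.5. In nuclei with at least 2 EC markers *Apln* passed a fold of 2 and *Aplnr* a fold of 1.5. *Trp53i11*, at 1.46, and *Esm1*, at 1.33, fell below 1.5 there. No ratio could be given for *Esm1* in the nuclei without pericyte UMIs or with Y gene RNA, nor for *Kcne3* in those without pericyte UMIs or with neither Y gene nor *Xist* RNA, because a library had 0 UMIs. Inside their wide intervals, *Esm1* went from 1.69 to 3.33 as mean CPM per nucleus and to 1.19 in nuclei with neither kind of RNA, and *Kcne3* from 2.54 to 1.14 in nuclei with fewer than 2 cycling UMIs, to 1.54 as mean CPM per nucleus and to 3.51 (1.06 to 14.9) in nuclei with at least 2 EC markers, where the interval no longer holds 1. In the same nuclei *Mcam* went from 1.08 to 1.11 (1.03 to 1.19), also above 1. In cycling nuclei *Aplnr* went from 1.11 to 1.24 (1.13 to 1.37) with at least 1 cycling UMI, where the interval no longer holds 1.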
